A study of Mus musculus with 22 samples.

Results

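Promoter shoulders, the flanks of mouse promoters, were compared between PyMT mammary tumors and normal FVB mammary glands. A shoulder position was an autosomal CpG cytosine covered in all 22 mice that lay more than 500 and at most 2000 bp from the nearest transcription start site (TSS) of a curated protein-coding RefSeq transcript. Of 1115690 autosomal positions covered in all mice, 151972 met this rule. The positions of each gene were split by side, and the 148391 positions in groups of 3 or more made 2309 upstream and 5811 downstream shoulders. They belonged to 6892 of 20021 annotated genes, and both shoulders were measured in 1228 genes. These 8120 shoulders were tested among 77613 regions in all. The others were 12498 core promoters, made of the positions within 500 bp of a TSS, and 56995 windows of 1500 bp that held the positions farther out.

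PyMT mice were F1 females heterozygous for a transgene in which the mouse mammary tumor virus (MMTV) promoter drives polyoma middle T antigen in mammary epithelium, and their mothers were homozygous FVB. There were 10 of them, 2 at week 6 (hyperplasia), 3 at week 8 (adenoma/MIN), 3 at week 10 (early carcinoma) and 2 at week 12 (late carcinoma). The controls were 12 homozygous FVB females of the same ages without the transgene, 3 at each week. The study left out 2 outlier samples after assessing coverage, percent methylation and a principal component analysis. By the counts per group both were PyMT samples, of weeks 6 and 12. The separation of the groups given here is thus without them. Stage is tied to age throughout. DNA came from bulk tumor or bulk gland, so fewer or more cells of a type and a change of methylation within a cell cannot be told apart in any difference given here.

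Methylation was read by ERRBS (enhanced reduced representation bisulfite sequencing), which covers CpG-rich fragments released by a restriction enzyme. Each mouse had 1314077 to 1435757 positions of at least 10 reads, at a mean coverage of 60.2 to 79.2 reads. The median upstream shoulder held 7 positions at a mean coverage of 73.0 reads, and the median downstream shoulder 11 positions at 75.2 reads. In a principal component analysis of the shoulders, PC1 held 68.5% of the variance and had positive scores in all PyMT and negative scores in all FVB mice. FVB week 8 replicate 2 stood apart on PC3, with a score of 313 against -63.2 to 73.9 in the other mice. The counts of called shoulders and the mean differences given here kept their direction and their side of the threshold without this mouse.

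Most mammalian promoters with a CpG island are free of methylation at the TSS, while DNA methyltransferases keep much of the remaining genome methylated. The flanks of an island, often called shores, form the transition between these states, and differences between tissues and between tumor and normal cells are known to fall there. The upstream flank is mostly intergenic or belongs to a neighboring gene, whereas the downstream flank is transcribed and holds first exons and introns.

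The sequences below show where the largest differences of each side and direction were measured among called shoulders of at least 5 positions in which the mice of the groups did not overlap. Each is the stretch of up to 300 bases of the shoulder that holds the most measured positions. They are from GRCm38 (mm10), run 5′ to 3′ on the strand of the gene, and have each measured CpG in capitals. The upstream windows of Uhrf2 (chr19:30029824-30030014, plus strand), Tcea3 (chr4:136247415-136247466, plus strand), Smtn (chr11:3540534-3540668, minus strand) and Pip4k2c (chr10:127212957-127213222, minus strand) lay outside protein-coding gene models. The first pair gained and the second pair lost methylation in PyMT mice.
Uhrf2 upstream: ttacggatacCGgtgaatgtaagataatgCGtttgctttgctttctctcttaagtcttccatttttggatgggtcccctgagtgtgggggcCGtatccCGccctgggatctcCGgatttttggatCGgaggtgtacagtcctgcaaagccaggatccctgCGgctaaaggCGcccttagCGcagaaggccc
Tcea3 upstream: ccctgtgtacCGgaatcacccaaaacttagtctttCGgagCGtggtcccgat
Smtn upstream: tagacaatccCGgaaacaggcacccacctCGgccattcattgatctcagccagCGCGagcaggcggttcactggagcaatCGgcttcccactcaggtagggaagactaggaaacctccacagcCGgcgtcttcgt
Pip4k2c upstream: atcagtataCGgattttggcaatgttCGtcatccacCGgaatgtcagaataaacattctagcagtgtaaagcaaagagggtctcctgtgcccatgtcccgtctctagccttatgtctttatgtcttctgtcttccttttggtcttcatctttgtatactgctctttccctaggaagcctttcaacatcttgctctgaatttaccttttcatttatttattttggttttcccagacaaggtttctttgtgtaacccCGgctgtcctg
Downstream, the gaining windows were those of Mab21l1 (chr3:55783514-55783661, plus strand, coding sequence) and Ckap4 (chr10:84533091-84533208, minus strand, intron). The losing windows of Aqp5 (chr15:99592758-99592859, plus strand) and Lcn2 (chr2:32386838-32387134, minus strand) each held coding sequence and intron.
Mab21l1 downstream: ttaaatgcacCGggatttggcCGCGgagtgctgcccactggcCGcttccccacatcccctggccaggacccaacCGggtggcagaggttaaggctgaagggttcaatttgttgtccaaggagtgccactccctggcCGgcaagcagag
Ckap4 downstream: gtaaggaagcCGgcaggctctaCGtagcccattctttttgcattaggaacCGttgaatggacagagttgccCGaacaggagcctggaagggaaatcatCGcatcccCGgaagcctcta
Aqp5 downstream: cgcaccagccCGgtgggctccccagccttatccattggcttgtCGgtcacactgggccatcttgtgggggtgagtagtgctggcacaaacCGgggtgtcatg
Lcn2 downstream: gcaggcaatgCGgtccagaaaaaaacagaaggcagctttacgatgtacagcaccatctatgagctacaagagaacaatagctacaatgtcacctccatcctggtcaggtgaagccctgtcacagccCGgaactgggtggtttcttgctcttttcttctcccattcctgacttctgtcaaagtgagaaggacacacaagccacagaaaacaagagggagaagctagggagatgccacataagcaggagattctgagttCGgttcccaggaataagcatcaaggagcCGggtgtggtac

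The positions within each of these windows differed in the same direction. In the Uhrf2 window, the group means of the 10 positions ran from 10.7% to 28.3% in FVB and from 33.4% to 78.8% in PyMT mice, and 8 positions had no overlap between the mice of the groups. The 6 positions of the Smtn window ran from 74.3% to 84.0% in FVB and from 16.3% to 20.3% in PyMT mice, without overlap at any of them. In the Mab21l1 window, 7 of 8 positions did not overlap, at 15.8% to 39.1% in FVB and 67.8% to 78.7% in PyMT mice. The differences along a window were thus of similar size at Smtn and more uneven at Uhrf2. The Lcn2 window had the thinnest coverage of the 8, with 36.5 reads per position on average and 12 at the lowest, and none of its 5 positions overlapped (67.5% to 70.5% against 12.4% to 20.8%). Each window held CCGG, the letters cut by MspI, 1 to 3 times. CCGG reads the same on both strands, and it occurred in 67.5% of the upstream and 75.3% of the downstream 1500-base windows of all 24860 TSSs.

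In the normal gland, the upstream flank was the more methylated side. The median FVB level of a shoulder was 6.17% upstream and 1.29% downstream. Among the 1228 genes with both shoulders, the upstream mean exceeded the downstream mean by 7.04 to 7.44 points in the FVB mice, or 7.27 ± 0.136 points (SD, n = 12; exact sign-flip test over mice, two-sided, p = 0.000488, the smallest possible). The excess was carried by part of the genes. It was over 20 points in 257 genes, whereas 122 genes were over 20 points higher downstream, 539 were under 5% on both sides, and the median difference was 0.197 points. Across these genes the FVB levels of the sides had r = 0.297, a description over genes that share libraries and are not replicates.

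Methylation rose with distance from the TSS on both sides. In FVB mice, positions 500 to 750 bp upstream averaged 5.78 ± 0.102% and those 1750 to 2000 bp upstream 33.3 ± 0.312% (SD over mice). Downstream the same distances gave 2.73 ± 0.0528% and 27.0 ± 0.265%. Just inside the limit of the rule, at 250 to 500 bp, the levels were 2.29% upstream and 1.60% downstream. The difference between PyMT and FVB mice followed distance too. It was -0.0392 points at 500 to 750 bp upstream and -2.13 points at 1750 to 2000 bp. Downstream it went from 0.230 points at 500 to 750 bp to -1.07 points at 1750 to 2000 bp.

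**Figure D1:**
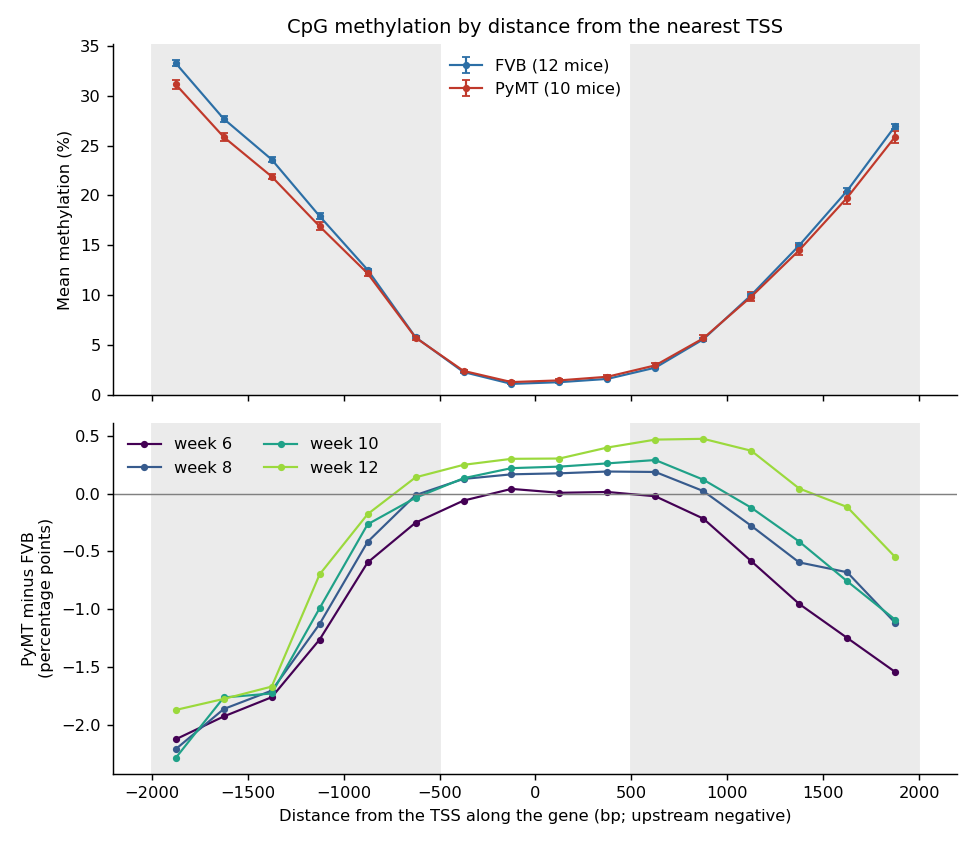
Mean methylation (upper panel, percent) and PyMT minus FVB by week (lower panel, percentage points) in bins of 250 bp by distance from the nearest TSS in bp. Levels rise away from the TSS on both sides, and the difference falls below 0 in the outer bins, to -2.13 points upstream and -1.07 points downstream over all weeks.

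The sides differed in what they overlapped. Of the upstream positions, 82.3% lay outside the gene models of curated coding transcripts, 11.7% in introns and 4.20% in coding sequence. Of the downstream positions, 59.0% lay in introns, 32.6% in coding sequence and 8.19% in UTRs. Upstream positions in coding sequence were the most methylated class, at 45.0 ± 0.366% in FVB mice (SD, n = 12), against 11.7 ± 0.138% outside gene models. Downstream, coding positions were at 11.2 ± 0.148% and intronic ones at 5.68 ± 0.0790%. The 1500-base windows of the measured shoulders had a median ratio of observed to expected CpG (o/e) of 0.357 upstream and 0.428 downstream, and repeats made up 15.5% and 11.2% of their bases at the median.

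In the mean over shoulders, both flanks were less methylated in PyMT mice than in FVB mice. Averaged over the upstream shoulders, FVB mice lay at 26.8% to 27.6% (median 27.4%) and PyMT mice at 25.2% to 26.2% (median 25.5%). No PyMT mouse reached the lowest FVB mouse. The group means were 25.6 ± 0.388% (SD, n = 10) and 27.3 ± 0.276% (SD, n = 12), a difference of -1.73 points. Downstream, FVB mice lay at 16.4% to 16.9% (median 16.8%) and PyMT mice at 15.4% to 16.3% (median 15.8%), again without overlap, and the difference was -0.844 points. Both had p = 2.5e-05 in an exact two-sided permutation test within weeks, the smallest that its 40000 arrangements allow, and an adjusted p of 6.67e-05 over the 8 tests of mean levels. Each shoulder counted equally in these means, whatever its number of positions. The median difference of a shoulder was -0.0500 points upstream and -0.0116 points downstream. Averaged over single downstream positions, PyMT minus FVB was -0.123 points in introns, 0.0420 points in coding sequence and 0.575 points in UTRs. The windows farther from promoters fell from 67.5% to 63.4%, and core promoters were at 4.34% and 4.41%.

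The downstream difference lay in the outer part of the flank. With positions up to 1000 bp from the TSS alone, it was -0.0234 points (exact permutation test, p = 0.70). Among the 1228 genes with both shoulders, the upstream flank fell by more than the downstream one. Upstream minus downstream was 6.68 to 7.06 points in PyMT and 7.04 to 7.44 points in FVB mice, a difference of -0.438 points (exact permutation test, p = 2.5e-05, adjusted p = 6.67e-05), although the groups touched at their ends. This did not hold for shoulders of at least 5 positions, where the difference was 0.00776 points (exact permutation test, p = 0.869). The shoulders of 3 or 4 positions were 31.4% of the upstream and 19.2% of the downstream shoulders, and had median FVB levels of 49.5% and 21.1%.

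**Figure D2:**
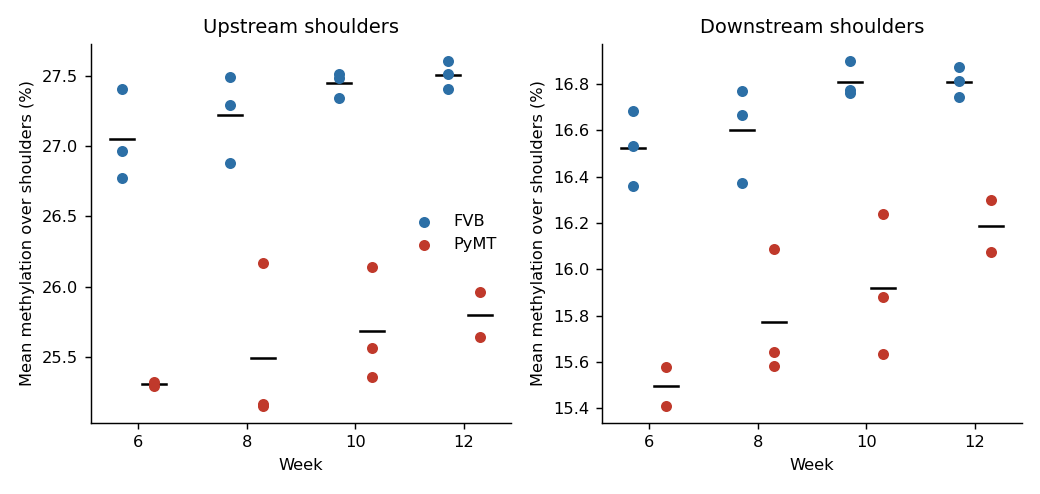
Mean methylation (percent) over the upstream and the downstream shoulders by week, with 1 point per mouse. PyMT mice lie between 25.2% and 26.2% upstream and between 15.4% and 16.3% downstream, below all FVB mice on both sides.

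Single shoulders were called as losses more often than as gains, on both sides. A shoulder was called when a quasi-binomial F test of its summed methylated and unmethylated reads, with week as a covariate, gave a Benjamini-Hochberg q-value under 0.01 over all 77613 regions and the mean level differed by at least 10 points. Upstream, 102 shoulders gained (4.42%, against 6.15% of all regions) and 263 lost methylation in PyMT mice (11.4%, against 17.4%). Downstream, 204 gained (3.51%) and 411 lost (7.07%). The shoulders were thus called less often than the whole table and more often than core promoters, of which 1.27% gained and 1.47% lost. PyMT and FVB mice did not overlap in 262 upstream (11.3%) and 611 downstream shoulders (10.5%), against 14.4% of all regions. The median change of a called shoulder was 17.4 points for gains and -16.9 points for losses upstream, and 15.7 and -17.3 points downstream. Without the minimum of 10 points, the excess of losses remained upstream and was nearly absent downstream. At q under 0.01 alone, 332 upstream shoulders were higher and 484 lower in PyMT mice, and 932 and 943 downstream. By the same limit, 1543 core promoters were higher and 706 lower, and 7660 and 20555 of the windows farther out.

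Most calls lay in shoulders that were partly methylated in the normal gland. The minimum difference of a call sets part of this pattern. A shoulder under 5% in FVB mice could not be called lost, and one near full methylation could not be called gained. Of the shoulders under 5% in FVB mice, 3 of 1129 upstream and 15 of 3763 downstream gained. From 20% to under 80%, 13.8% gained and 31.9% lost upstream, and 14.4% gained and 32.7% lost downstream. The shares of the sides were close within this range of FVB levels, and their difference was not tested. At 80% or more, 61 of 319 upstream shoulders lost methylation (19.1%, against 11.4% of all upstream shoulders). Downstream, 59 of 417 did (14.1%, against 7.07%). CpG-dense shoulders, with an o/e of 0.6 or more, had 4 gains and 1 loss among 356 upstream and 15 gains and 8 losses among 1355 downstream. Their median FVB levels were 0.279% and 0.327%.

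The positions of a called shoulder mostly went one way. In gained shoulders, 93.1% of upstream and 94.7% of downstream positions were higher in PyMT mice, and in lost shoulders 93.7% and 94.3% were lower. The call itself uses these positions, and the strands of a CpG are listed as separate positions, so these shares are a description. Every position had the sign of its shoulder in 79 of 102 gained and 209 of 263 lost upstream shoulders, and in 157 of 204 and 322 of 411 downstream.

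Most core promoters beside a called shoulder were not called themselves. Calls in the direction of the shoulder were still more frequent there than over all cores, which was not tested. Of all cores, 1.27% gained and 1.47% lost. Beside uncalled upstream shoulders, 16 of 1726 cores gained and 13 lost. Beside uncalled downstream shoulders, 32 of 4663 gained and 27 lost. A core was measured for 86 genes with a gained upstream shoulder, and 5 of these cores gained and 0 lost. Of 151 cores beside gained downstream shoulders, 18 gained and 2 lost. Beside lost shoulders, 6 of 189 cores lost and 4 gained upstream, and 17 of 285 lost and 3 gained downstream. These cores had median FVB levels of 0.390% to 0.689%. Among the 18 gained cores beside gained downstream shoulders was that of Mab21l1. Its 7 positions stood at 26.6% in FVB mice and gained 44.9 points.

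Among upstream shoulders of at least 5 positions without overlap of the groups, the largest gains were at Uhrf2 and Tcea3, whose windows are shown above. Over all called upstream shoulders the highest gain was 53.2 points. Uhrf2 encodes a RING-type ubiquitin ligase related to Uhrf1, which binds hemimethylated DNA. FVB mice ranged from 11.4% to 20.3% (median 17.0%) and PyMT mice from 35.5% to 63.5% (median 51.7%). The mean went from 16.3 ± 2.98% to 50.4 ± 10.3%, a gain of 34.1 points (q = 1.07e-08), and PyMT means were 39.6% at week 6 and 62.2% at week 12. Tcea3, a transcription elongation factor of the TFIIS family, ranged from 10.9% to 22.7% in FVB and from 45.4% to 59.4% in PyMT mice, also a gain of 34.1 points (q = 1.07e-09). The cores of Uhrf2 and Tcea3 stood at 0.156% and 1.51% in FVB mice and were not called.

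Ackr3, an atypical receptor for the chemokine Cxcl12, gained 28.9 points over 17 positions (chr1:90202234-90202991), from 13.6% to 26.7% in FVB to 36.4% to 59.9% in PyMT mice (q = 1.80e-08). The upstream shoulder of Ccdc116 (chr16:17147857-17148292) had 30 of its 31 positions in coding sequence of the neighboring gene Ydjc. It gained 26.2 points, and PyMT means were 23.7% at week 6 and 47.7% at week 12. Hr, the hairless corepressor, and Sparcl1, a matricellular protein, gained 25.7 points over 6 positions and 25.6 points over 7. Mice of the groups did not overlap in any of these 6 shoulders, which was part of how they were chosen.

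The largest losses upstream exceeded the gains among these examples. Smtn encodes smoothelin, a cytoskeletal protein of contractile smooth muscle. FVB mice ranged from 67.9% to 91.5% (median 79.4%) and PyMT mice from 10.0% to 25% (median 17.6%). The mean fell from 80.7 ± 6.40% to 18.8 ± 4.67%, a difference of -61.9 points (q = 2.07e-10). Pip4k2c, a phosphoinositide kinase, ranged from 62.3% to 82.8% in FVB and from 14.5% to 30.7% in PyMT mice, a difference of -55.1 points. Gm829 (chr4:45682894-45683083, 9 positions) differed by -48.8 points, and Snx4, a sorting nexin of endosomes (chr16:33250145-33250286, 5 positions), by -47.0 points. The cores of Smtn, Pip4k2c and Snx4 stood at 0.460%, 0.145% and 0.102% in FVB mice and were not called.

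Cracr2b, a regulator of calcium release-activated calcium channels, differed by -45.5 points over 19 positions (chr7:141459205-141460551). All of them lay in the coding sequence or UTR of Pnpla2, the adipose triglyceride lipase gene. FVB mice were at 48.9% to 63.9% and PyMT mice at 9.08% to 18.5%. Ddx17, a DEAD-box RNA helicase, differed by -44.9 points over 9 positions (chr15:79547329-79547570). In these 6 lost shoulders the PyMT means were low from the start, at 11.9% to 25.1% at week 6 and 13.9% to 18% at week 12.

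Downstream, the largest gain was at Mab21l1, a developmental gene of the eye that lies within Nbea on the other strand. Over 11 coding positions FVB mice ranged from 16.5% to 40.9% (median 20.1%) and PyMT mice from 64.8% to 81.3% (median 71.6%). The mean went from 23.9 ± 7.98% to 72.4 ± 5.98%, a gain of 48.5 points (q = 1.26e-08). Its relative Mab21l2 (chr3:86547106-86547755, 32 positions), which overlaps Lrba, gained 35.9 points, with PyMT means of 41.5% at week 6 and 66% at week 12. Ckap4, a membrane protein of the endoplasmic reticulum, ranged from 8.79% to 15.6% in FVB and from 37.7% to 63.7% in PyMT mice, a gain of 39.3 points in its intron. Its core of 135 positions stood at 0.188% in FVB mice and was not called.

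Angpt2, a ligand of the endothelial receptor Tie2, gained 38.8 points at 15 intronic positions (chr8:18739873-18740433), from 28.3% to 49.2% in FVB to 68.4% to 81.8% in PyMT mice. The gene 4930404N11Rik had 56 positions in coding sequence and UTR (chr10:81363875-81364942), the most of the gained shoulders described up to here. It gained 35 points, from 28.6% to 36.0% in FVB to 53.0% to 75.6% in PyMT mice. Its PyMT means went from 57.0% at week 6 to 75.1% at week 12.

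By the same limits, the largest losses downstream were at Aqp5 and Lcn2. Aqp5, a water channel of glandular epithelia, ranged from 57.1% to 77.6% in FVB (median 69.5%) and from 10.7% to 23.3% in PyMT mice (median 17.6%). The difference was -51.5 points (69.1 ± 6.27% against 17.6 ± 4.68%, q = 5.08e-10). Lcn2, a lipocalin that binds iron-carrying siderophores, ranged from 52.2% to 83.1% in FVB and from 9.79% to 27.8% in PyMT mice, a difference of -49.8 points over 7 positions.

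Msln, the gene of the surface protein mesothelin (chr17:25752379-25752474), differed by -46.1 points at 5 intronic positions. The mitochondrial RNA-processing gene Ptcd1 (chr5:145165119-145165219) differed by -45.5 points at 6 coding positions. Ankrd13b (chr11:77488085-77488864) and the protease inhibitor gene Spint2 (chr7:29280028-29280296) differed by -44.6 and -44.3 points at 8 and 7 intronic positions. The cores of Ptcd1, Ankrd13b and Spint2 stood at 0.415%, 0.175% and 0.526% in FVB mice, and none was called.

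**Figure D3:**
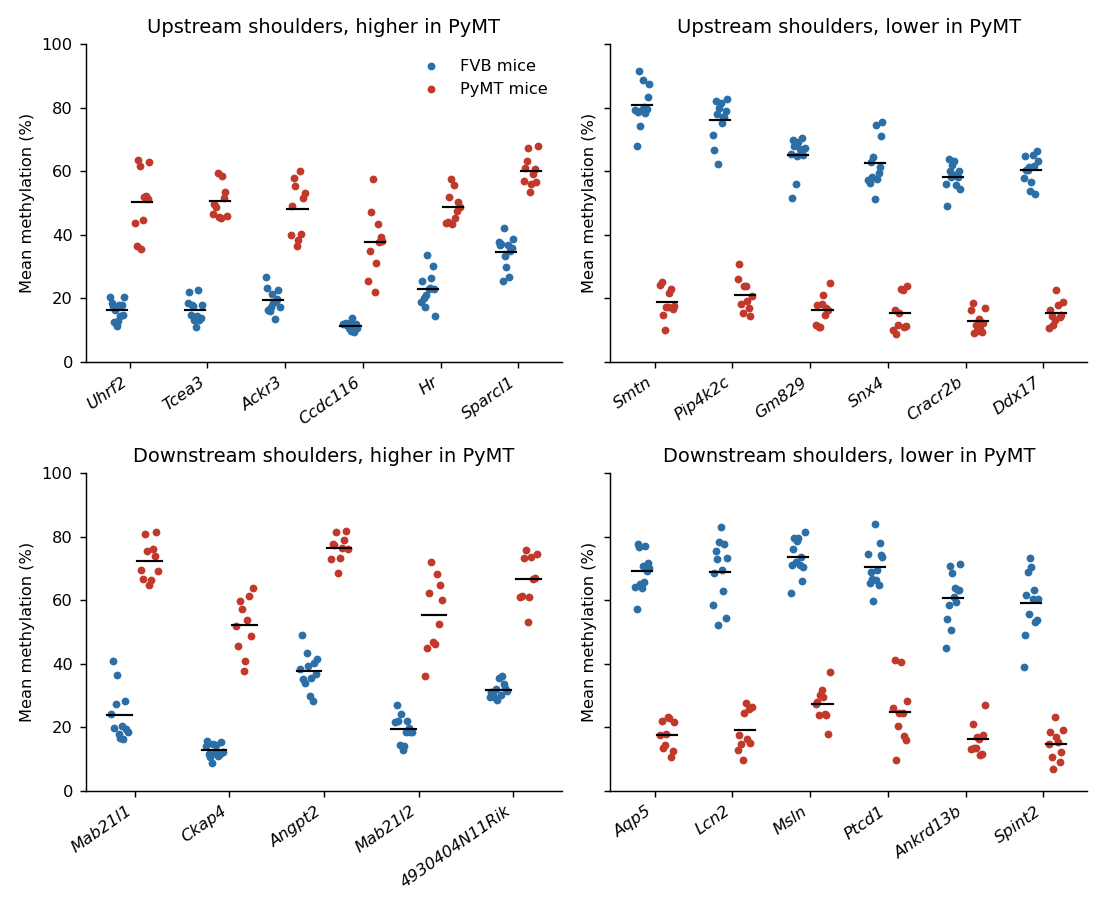
Mean methylation (percent) of the 23 shoulders described above with the largest gains and losses on each side among called shoulders of at least 5 positions, with 1 point per mouse (FVB and PyMT colored). The groups do not overlap in any of them, which was a condition of their choice, and the differences run from 48.5 points (Mab21l1) to -61.9 points (Smtn).

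The sides of a gene were mostly called one at a time. In the genes with both shoulders, 4.15% gained and 7.98% lost upstream, and 3.18% gained and 5.46% lost downstream. Calls this rare fall mostly on 1 side even where the sides are unrelated, and whether they coincided was not tested. Of the 1228 genes with both shoulders, 5 gained on both sides, 14 lost on both, 3 gained upstream and lost downstream, and 0 did the reverse. The upstream side alone gained in 43 genes and lost in 84, and the downstream side alone gained in 34 and lost in 50. Across the genes the differences of the sides had r = 0.125, again a description over genes that share mice. The difference between the sides was itself tested with limma on upstream minus downstream percent, at q under 0.01 over the 1228 genes and at least 10 points. PyMT minus FVB was higher upstream in 94 genes (7.65%) and higher downstream in 116 (9.45%).

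**Figure D4:**
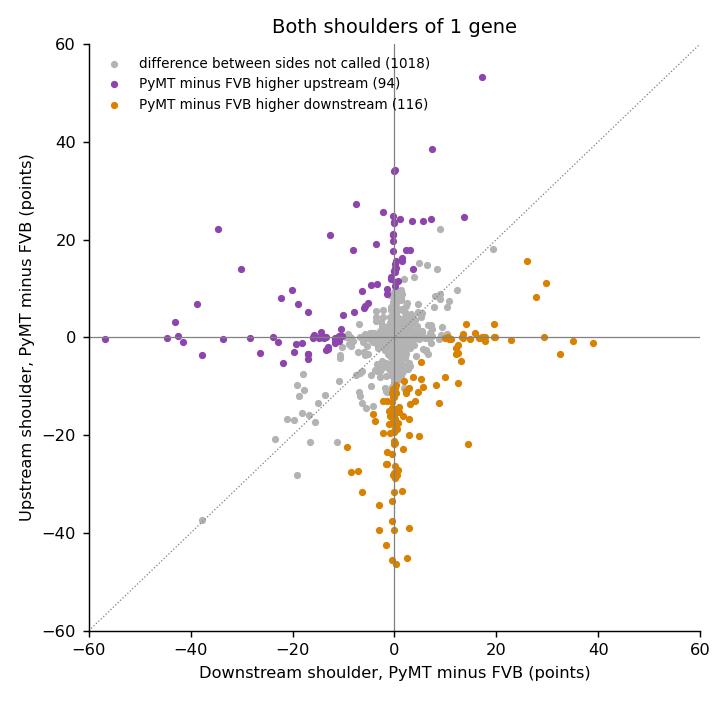
PyMT minus FVB (percentage points) of the upstream against the downstream shoulder, with 1 point per gene with both shoulders, colored by the test of the difference between the sides. The 94 and 116 called genes include Plekhg4, whose sides differ by 56.7 points, and Cracr2b, whose sides differ by -45.0 points.

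Plekhg4, a guanine nucleotide exchange factor, had its sides called in opposite directions. Its 13 upstream positions, in an intron of longer Plekhg4 transcripts (chr8:105374605-105374716), ranged from 12.3% to 27.3% in FVB and from 13.3% to 64.3% in PyMT mice. These values overlapped, and the mean gained 22.1 points (q = 0.000143). Its 9 downstream positions (chr8:105376505-105376605) ranged from 41.8% to 66.5% in FVB and from 8.83% to 22.5% in PyMT mice, a difference of -34.7 points. The difference between the sides was 56.7 ± 5.39 points (SE, limma q = 8.48e-08).

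In Ifi30, Syne4 and Ankrd13b the difference in points was larger downstream. Ifi30, a thiol reductase of antigen processing, fell from 73.7% to 30.7% downstream, while its upstream shoulder, in a UTR of Pik3r2, was at 77.5% and 80.7% (q = 0.205). Syne4, a protein of the nuclear envelope, fell from 50.6% to 11.9% downstream. The upstream shoulder of Syne4, in coding sequence of Alkbh6, was at 75.7% and 82.4% (q = 0.00470). Ankrd13b was at 0.209% and 0.0474% upstream (q = 0.0875), a level that left no room for a loss of similar size in points. Its sides were placed by different TSSs of the gene, most often chr11:77490042 upstream and chr11:77489678 downstream. The sides differed by 46.3 ± 4.23, 45.4 ± 2.96 and 44.4 ± 2.35 points in Ifi30, Syne4 and Ankrd13b (SE, limma q = 5.06e-08, 5.66e-10 and 6.75e-11).

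In Cracr2b, Sox10 and Zfhx3 the difference in points was larger upstream. Their downstream shoulders were at 0.233% to 2.37% in FVB mice, which left no room for a loss of similar size there. The 49 downstream positions of Cracr2b were at 0.710% in FVB and 0.234% in PyMT mice (q = 0.00219). The sides of Cracr2b differed by -45.0 ± 1.68 points (SE, limma q = 7.96e-13). Sox10 encodes a transcription factor of the neural crest. Its 14 upstream positions (chr15:79166056-79166179) ranged from 40.3% to 70.0% in FVB and from 10.2% to 26.9% in PyMT mice. The 24 downstream positions of Sox10 were at 2.37% and 0.70%, also without overlap of the groups (q = 7.60e-06). Zfhx3, a zinc finger homeobox gene, differed by -39.4 points at 11 upstream positions (chr8:108713740-108714073). These lay within the annotated Zfhx3 gene but outside its curated coding transcripts. Downstream, Zfhx3 was at 0.233% and 0.154% (q = 0.724). In 4930404N11Rik the downstream side gained, as given above, and the upstream side, in Fzr1, was at 89.6% and 88.9%.

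Among 10 downstream shoulders of luminal marker genes, 4 lost methylation and 0 gained, where 7.07% of all downstream shoulders lost and 3.51% gained. Krt18, a keratin of luminal cells, ranged from 63.6% to 78.4% in FVB and from 33.1% to 43.2% in PyMT mice, a difference of -34.8 points over 12 positions. The prolactin receptor gene Prlr differed by -29.5 points over 3 positions and the tight junction gene Cldn4 by -29.4 points over 27. Gata3, a regulator of luminal identity, ranged from 17.5% to 27.3% in FVB and from 2.24% to 8.35% in PyMT mice. Cdh1, Krt8 and Epcam passed the q-value threshold with smaller differences, of -4.67, -2.48 and -2.00 points. Esr1 was at 52.1% and 55.3% (q = 0.623). The median difference of the 10 was -3.58 points, against -0.01 over all downstream shoulders. The 2 upstream shoulders, of Gata3 and Foxa1, were not called.

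Some markers of other cell types were called, in both directions, where 4.42% of all upstream shoulders gained and 11.4% lost, and 3.51% of all downstream shoulders gained and 7.07% lost. Of 3 basal marker shoulders on each side, Krt5 lost 10.6 points upstream and Myh11, a smooth muscle myosin, lost 42.4 points downstream. Of 4 adipocyte marker shoulders on each side, Cidec lost 21.6 points upstream, and Lep (leptin) and Cfd (adipsin) lost 21.1 and 11.3 points downstream. Of the endothelial markers, Cldn5 and Cdh5 lost 17.5 and 15.9 points upstream (2 of 3 shoulders), and Pecam1 and Egfl7 gained 16.4 and 12.4 points downstream (2 of 4). The single leukocyte marker shoulder, of Cd8a, lost 12.7 points, and the single fibroblast marker shoulder, of Col1a1, was at 0.252% and 0.276%. The other marker shoulders of these lists were not called. The part of the cell types in the other differences was not tested.

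Of the homeobox and paired genes, 1 of 74 upstream shoulders gained (1.35%, against 4.42% of all upstream shoulders) and 4 lost (5.41%, against 11.4%). Downstream, 2 of 129 gained (1.55%, against 3.51%) and 5 lost (3.88%, against 7.07%). Their median differences were 0.176 and 0.509 points, against -0.05 and -0.01 over all upstream and downstream shoulders. Hoxb6 had the largest difference, -19.2 points over 20 positions, from 16% to 46.3% in FVB to 7.23% to 15.6% in PyMT mice. Its neighbor Hoxb5 differed by -16.9 points and Hoxa5 by -17.9 points, whereas Hoxc9 gained 14.1 points. Of the forkhead, Sox, T-box and Gata genes, 4 of 38 upstream shoulders lost, including Sox10, and 0 gained, and 2 of 60 downstream shoulders gained and 4 lost. The shares that lost, 10.5% upstream and 6.67% downstream, and the 3.33% that gained downstream were near those of all shoulders. Foxj1, a regulator of motile cilia, gained 23.0 points over 22 positions, from 13.9% to 21.3% in FVB to 26.1% to 53.4% in PyMT mice.

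Of the Wnt pathway genes, 0 of 13 upstream shoulders were called, and 1 of 38 downstream shoulders gained (2.63%, against 3.51% of all downstream shoulders) and 2 lost (5.26%, against 7.07%). The gain was at the receptor gene Fzd2, with 54 coding positions (chr11:102605001-102606430). FVB mice ranged from 9.70% to 15.1% and PyMT mice from 28.2% to 57.3%, a difference of 33.3 points (q = 8.28e-10). PyMT means of Fzd2 were 35.2%, 42.5%, 49.3% and 53.4% at weeks 6, 8, 10 and 12. The Fzd2 downstream shoulder differed by 0.326 points (q = 0.181) with its positions up to 1000 bp from the TSS alone, and the core stood at 0.552% in FVB mice. The losses were at the receptor gene Fzd6 (-14.4 points) and the ligand gene Wnt10a (-13.2 points).

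Of the zinc finger genes, 10 of 89 downstream shoulders gained (11.2%, against 3.51% of all downstream shoulders) and 2 lost (2.25%, against 7.07%). Upstream, 2 of 38 gained (5.26%, against 4.42%) and 5 lost (13.2%, against 11.4%). Zfp809, a repressor of retroviral elements, gained 26.4 points over 15 positions, from 28.2% to 44.2% in FVB to 54.5% to 67% in PyMT mice. Zfp952 differed by -60.8 points at 3 intronic positions. Of the ribosomal protein genes, 3 of 16 upstream (18.8%, against 11.4%) and 7 of 43 downstream shoulders lost (16.3%, against 7.07%) and 0 gained. Rpl19 and Rpl35 differed by -26.9 and -16.6 points downstream. Of the collagen genes, 1 of 7 upstream shoulders gained and 2 lost (14.3% and 28.6%, against 4.42% and 11.4%), and 1 of 15 downstream gained and 1 lost (6.67% each, against 3.51% and 7.07%). The upstream gain was at Col16a1, from 31.3% to 50.6% in FVB to 53.0% to 69.7% in PyMT mice.

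The mean upstream difference was alike at the stages, and the downstream one was smallest at week 12. Upstream, PyMT minus FVB was -1.74, -1.72, -1.76 and -1.70 points at weeks 6, 8, 10 and 12, and downstream it was -1.03, -0.831, -0.891 and -0.624 points. Between weeks 6 to 8 and weeks 10 to 12, the PyMT mean was higher by 0.311 points upstream (exact permutation test, p = 0.214, adjusted p = 0.214) and by 0.365 points downstream (exact permutation test, p = 0.0714, adjusted p = 0.0816). These 5 against 5 mice allow no p below 0.00794. Without PyMT week 8 replicate 1 the exact p was 0.0159 upstream and 0.0238 downstream, and without PyMT week 10 replicate 3 it was 0.0317 downstream. The FVB mean rose by 0.341 points upstream (exact permutation test, p = 0.0260, adjusted p = 0.0346) and by 0.246 points downstream (exact permutation test, p = 0.00649, adjusted p = 0.0104). The upstream rise in FVB mice lost significance without any 1 of 4 mice, replicates 2 and 3 of weeks 10 and 12 (exact p = 0.0519 to 0.0649). Whether PyMT and FVB mice changed by different amounts was not tested on these means.

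At single shoulders, the difference between PyMT and FVB mice changed with week in 0 upstream and 0 downstream shoulders at q under 0.01 in the quasi-binomial F test (0% of all regions). At an unadjusted p under 0.05 in this test there were 174 upstream (7.54%) and 462 downstream shoulders (7.95%). The share was 7.39% in core promoters and 8.37% in the windows farther out. A likelihood-ratio test on reads, which leaves out the spread between mice, called 801 and 2045, and limma on the mean percent called 0 and 5. The counts of these other tests over all regions are not given here, so their calls cannot be set against that share. The 5 shoulders, Ajap1, Fam43a, Hs3st4, Nwd2 and Tmem132c, were named after their values were seen. They held 40 to 98 positions, and FVB mice stayed between 1.07% and 2.88% in them. Ajap1, a protein associated with adherens junctions, was at 5.19% and 6.06% in the PyMT mice of week 6, at 9.13% to 14.9% at week 8, at 13.5% to 20.3% at week 10 and at 27.9% and 29.2% at week 12. Hs3st4, a heparan sulfate sulfotransferase, was at 2.35% and 2.36% in PyMT mice at week 6 and at 8.90% and 9.33% at week 12. In all 5 the week 12 PyMT mice were the highest. The limma q-value of the interaction ran from 0.000123 (Fam43a) to 0.00826 (Tmem132c), and the quasi-binomial q-values from 0.221 (Hs3st4) to 0.452 (Tmem132c).

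**Figure D5:**
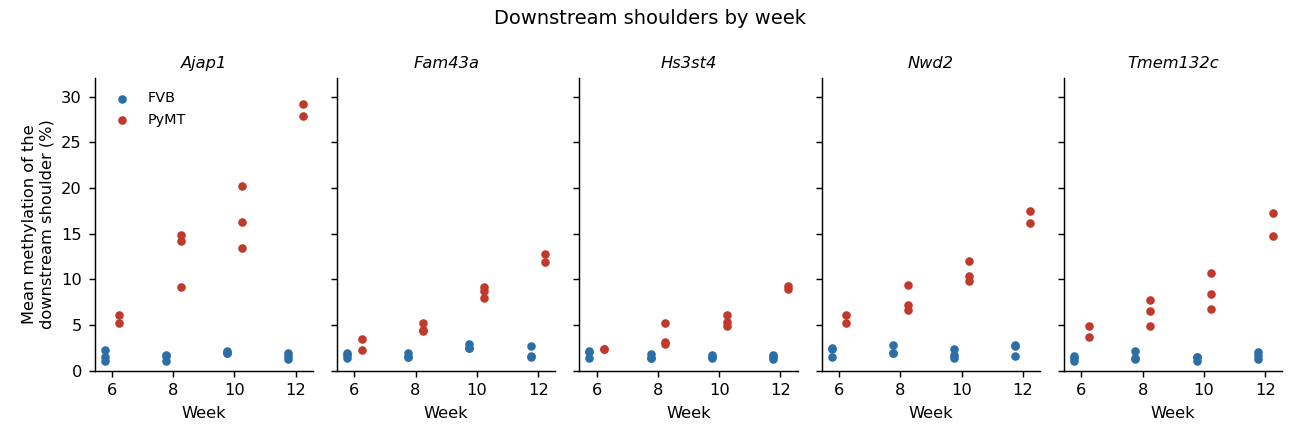
Mean methylation (percent) by week of the 5 downstream shoulders whose difference changed with week in limma, with 1 point per mouse. FVB mice stay between 1.07% and 2.88%, and PyMT mice are highest at week 12, at 27.9% and 29.2% in Ajap1.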

How the data were processed

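ERRBS was performed on 22 mammary samples, 1 file per mouse. Reads were aligned to mm10 with Bismark by the authors (version not given in the sources used here), and the deposited values were the coverage (count of reads) of each CpG cytosine of at least 10 reads and the percent of reads methylated, with strands kept apart and replicates not pooled. Samples were grouped by the labels. The members and gene lists were chosen with earlier results of these data known.

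Distances were taken from RefSeq transcripts on GRCm38. Methylated reads were recovered from coverage and percent and summed per region. PyMT and FVB were compared by a quasi-binomial F test with week as covariate (dispersion of at least 1), with Benjamini-Hochberg adjustment over 77613 regions. Mean levels were tested by exact two-sided permutation, and side differences with limma. A difference is the mean of 10 PyMT minus the mean of 12 FVB mice, in percentage points. The labels number the replicates without naming animals, so p-values measure the spread between these samples, called mice here. The 20 pairs of replicates of the same group all differed by more than sampling noise (mean chi-square of 2.66 to 5.91 per shoulder). Mitochondrial methylation, which includes unconverted cytosines, was 0.172% to 0.276%. Reads carry no molecular identifiers, so coverage bounds counting error only.

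Shoulders were named by rule: on each side the 6 largest gains and losses among called shoulders of at least 5 positions without overlap of the groups, the 4 genes with the largest side difference in each direction, and the largest called member of each list. Of these, 2 shoulders are not reported here. Other list members were named after their values were seen. Alternatives were a coverage minimum of 20, summed strands, other position and difference minimums, inner or outer positions, other tests, each mouse left out and, chosen after seeing the data, leaving out positions of extreme coverage. Scripts were tested on simulated data. The tools were limma 3.58.1 under R 4.3.3, and pandas 2.3.3, SciPy 1.17.1 and NumPy 2.4.6 under Python 3.11.15.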

Additional observations from a re-analysis of the deposited data

Results flagged for a closer look

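The downstream shoulder of Zfhx3 was singled out because its difference had opposite directions at different weeks. At week 6 the PyMT mice, at 0.266% and 0.391%, were above the FVB mice, at 0% to 0.261%. At week 10 the PyMT mice, at 0% to 0.0413%, were below the FVB mice, at 0.240% to 0.523%. Over all weeks PyMT minus FVB was -0.0792 points over 24 positions. The difference between these 2 weeks was not tested by itself, and the interaction of group and week over all 4 weeks had a quasi-binomial q of 0.70. All these levels are under 1% of reads. Mitochondrial positions, whose signal includes unconverted cytosines, were at 0.172% to 0.276%. All named shoulders were searched for such a pattern, with few mice per week and no correction for the search.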

How the results depend on the processing

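The mean difference upstream and the FVB excess of the upstream side kept their direction and significance under every alternative run. With only positions up to 1000 bp out, the mean downstream difference was -0.0234 points (exact permutation p = 0.70), and 57 upstream shoulders gained and 101 lost, 115 downstream gained and 152 lost, and PyMT minus FVB was higher upstream in 28 genes and higher downstream in 43. With at least 5 positions, the difference between the sides was 0.00776 points (exact permutation p = 0.869), the counts were 52, 110, 129 and 228, and 50 and 47 genes. With only positions beyond 1000 bp, 63 upstream shoulders gained and 174 lost, and 37 and 45 genes were called. A minimum of 5 points gave 176 upstream gains, 357 downstream gains and 623 downstream losses, with 148 and 189 genes. A minimum of 25 points gave 13, 69, 38 and 111 shoulders, with 23 and 25 genes. Genes with both shoulders alone gave 51, 98, 39 and 67. The cause of these changes was not tested beyond the smaller number of positions or genes. The interaction count was 801 upstream and 2045 downstream by the likelihood-ratio test and 5 downstream by limma. The later minus earlier PyMT mean was 0.437 points upstream (exact permutation p = 0.0476) and 0.404 points downstream (exact permutation p = 0.0397) with at least 5 positions, 0.378 points downstream (exact permutation p = 0.0476) without positions near a TSS of another gene, and 0.388 points downstream (exact permutation p = 0.0159) up to 1000 bp out. The later minus earlier FVB mean was 0.193 points upstream (exact permutation p = 0.0519) up to 1000 bp out.

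Leaving out each mouse in turn gave 96 to 106 gained and 250 to 265 lost upstream shoulders, 198 to 217 gained and 394 to 419 lost downstream, 87 to 96 and 111 to 118 genes, with 0 interaction calls each time. Mean differences ran from -1.79 to -1.68 points upstream, -0.894 to -0.796 downstream and -0.463 to -0.421 between the sides, and the FVB excess from 7.25 to 7.29. Later minus earlier weeks ran from 0.209 to 0.497 upstream and 0.297 to 0.472 downstream in PyMT, and from 0.269 to 0.412 and 0.205 to 0.287 in FVB mice. Of 1686 values of named shoulders and genes under alternatives, 1685 kept their direction and side of the threshold, the exception being Fzd2. Same-numbered samples did not pair, with correlations of -0.0397 to 0.0998, and a fit with the replicate number as a block gave 93 upstream shoulders gained, 237 upstream shoulders lost, 191 downstream shoulders gained, 389 downstream shoulders lost, 86 genes with PyMT minus FVB higher upstream and 106 with it higher downstream, and changed no other call. Shoulders of few positions or reads limit the precision of single levels.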
